A study of Bos taurus with 16 samples.

Results

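The comparison described here set liver slices treated with WY-14643, an agonist of PPARα, against untreated control slices of the same cow. Precision-cut slices were prepared from liver biopsies taken shortly after calving from primiparous Jersey cows and were kept in William's Medium E for 18 h. The treatment protocol gives the DMSO vehicle as 0.8% of the volume for treatments, whereas the labels call the controls untreated, so that vehicle in the control slices is not settled by the sources used here. In cows 581, 576 and 567, 1 library came from control slices and 1 from slices given 100 µM WY-14643, so that 6 of the 16 libraries of the series belonged to the comparison. The same cows also gave slices treated with 50 µM GW-501516 (a PPARδ agonist) and with 100 µM rosiglitazone (a PPARγ agonist), which shared the estimate of the spread. A 4th cow (574) stayed out of the tests. The study removed it for low RNA integrity and as an outlier in a principal component analysis of the sequencing data. Every gene that exceeded 4 counts in 1 or more of the 6 libraries was described, which gave 18449 of the 28786 gene names in the table. The replicate was the cow, with 3 per group. Each library came from slices of 1 biopsy, and a slice holds every cell type of the liver.

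PPARα is a nuclear receptor that binds fatty acids and, as a partner of RXR, activates genes for the uptake, activation and oxidation of fatty acids and for ketone body synthesis. In rodent liver its agonists, WY-14643 among them, are known for inducing peroxisomal and mitochondrial oxidation genes. In dairy cows the receptor is of interest because fatty acids released from adipose tissue reach the liver in large amounts after calving.

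Values are CPM, the share of a library's gene counts that a gene took, scaled by TMM, and are always listed in the order cow 581, 576 and 567. The log2 fold changes are those of edgeR's quasi-likelihood test with the cow as a block, given with their standard errors, and a gene was called when its p adjusted by Benjamini-Hochberg over all 18449 genes was under 0.2. Control libraries held 3081981 to 4026365 gene counts and WY-14643 libraries 4880750 to 10227330, so the treated libraries were deeper in every cow. A single ribosomal RNA gene, RN18S1, took 37.2 to 45.8% of the gene counts in control and 14.1, 33.3 and 11.9% with WY-14643. The column labels of the WY-14643 libraries of cows 581 and 567 (and of the GW-501516 library of cow 581) carry an extra mark that the sources used here do not explain. These 2 libraries were also the deepest and the poorest in RN18S1, so that the mark, the depth and the treatment cannot be told apart within these cows.

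With WY-14643, 143 genes rose and 79 fell. These were 0.775% and 0.428% of the genes tested. At an adjusted p under 0.1 edgeR called 67 higher and 39 lower (0.363% and 0.211%), and under 0.05 it called 42 and 29 (0.228% and 0.157%). In all 3 cows, 123 of the genes that rose were above their own control and 74 of those that fell were below it. Over all genes tested, called or not, 19.6% were higher and 11.2% lower in all 3 cows. A change of at least 2-fold in each cow was found for 50 genes that rose and 33 that fell, against 1.96% and 1.11% of all genes. The groups did not overlap for 73 of the rises and 60 of the falls, against 9.91% and 5.10% of all genes. The median log2 fold change of all genes was 0.24, which moved to 0.12 with DESeq2 size factors and to 0.09 with upper quartile scaling. The calls then split into 128 higher and 123 lower, and into 112 higher and 129 lower, so that the excess of rises depended on the scaling.

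The response was uneven between cows. The genes that rose had a median log2 ratio to their own control of 2.51 in cow 581 and 1.92 in cow 567, but of 0.77 in cow 576. For the genes that fell the medians were -1.99, -2.01 and -1.0. At least 2-fold rises were seen in 136 of the 143 genes in cow 581, in 133 in cow 567 and in 61 in cow 576. These genes were called from the same values, and the share of all genes at 2-fold in each cow was not counted. The medians and counts are therefore a description of the called genes only. Across 8212 genes with a mean of at least 50 counts over the 12 libraries, the ratios of cows 581 and 567 had a Pearson r of 0.58, whereas r was 0.11 between cows 581 and 576 and 0.13 between cows 576 and 567. These points share their libraries' depth and the RN18S1 share, and are given as a description. The number of calls was not stable: without the cow as a block 8 genes rose and 2 fell, and leaving out 1 library or cow gave 4 to 1914 rises and 2 to 1109 falls. The lowest counts came without the control library of cow 581 and the highest without cow 576. The GW-501516 library of cow 576 lay outside the comparison but entered the shared spread. Of the 12 libraries it had the most RN18S1, at 63.8% of gene counts, and the fewest genes detected, 9993. With that library alone left out, 968 genes rose and 465 fell.

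**Figure D1:**
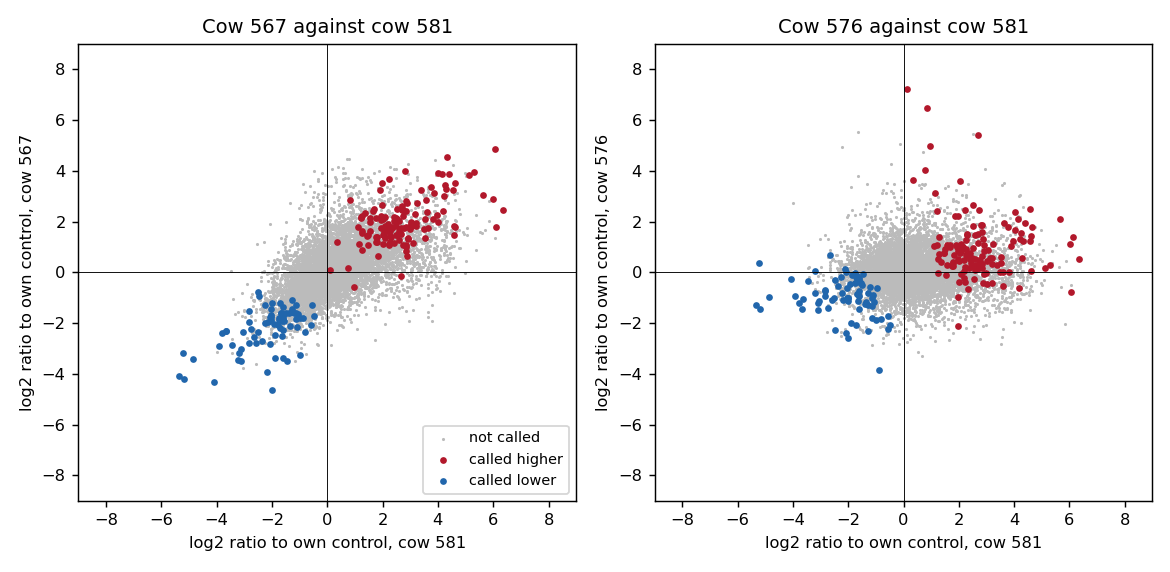
Log2 ratio of WY-14643 to the own control in one cow (x axis) against another cow (y axis), after adding 1 CPM, 1 point per gene with a mean of at least 50 counts over the 6 libraries, red for genes called higher and blue for genes called lower. Cows 567 and 581 lie along a common diagonal and cow 576 against cow 581 does not (r = 0.58 and 0.11 over the 8212 genes of the text).

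Several genes rose in all 3 cows with no overlap between the groups. CYP3A4, a cytochrome P450 that oxidizes drugs and steroids, stood at 84.3, 99 and 91.3 CPM in control and at 195, 540.1 and 404 CPM with WY-14643 (log2 fold change 1.95 ± 0.33, adjusted p = 0.00289, edgeR). All treated slices lay above all control slices, with the largest rise in cow 576. CXCL8, the chemokine that attracts neutrophils, was at 249.8, 87.6 and 157 CPM in control and at 1043, 1061 and 432 CPM with the agonist (log2 fold change 2.45 ± 0.37, adjusted p = 0.00144, edgeR), and was the one gene of those tracked through the 26 alternative settings that kept its call in all of them. LBP, an acute-phase protein that carries bacterial lipopolysaccharide, was at 31.4, 25.1 and 56.8 CPM and 234, 63.6 and 307 CPM (log2 fold change 2.29 ± 0.38, adjusted p = 0.00254, edgeR). The treated slice of cow 576 was only slightly above the control of cow 567. IGFBP1, a liver-secreted binding protein for insulin-like growth factors, rose from 73.6, 49.4 and 102 CPM to 703, 107 and 693 CPM (log2 fold change 2.65 ± 0.47, adjusted p = 0.00562, edgeR), with the value of cow 576 just above the highest control. Without the 3 marked libraries, which leaves cow 576 as the only pair, the log2 fold change was 0.14 for IGFBP1 and 1.11 for LBP. That fit also drew on the GW-501516 and rosiglitazone slices of cow 576 for the level of this cow. The log2 ratio of cow 576 to its own control was 1.10 for IGFBP1 and 1.31 for LBP.

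Of 29 antioxidant and glutathione genes 5 rose and 1 fell. The rises were SOD2, TXN (thioredoxin) and the metallothioneins MT2A, MT1A and MT1E, small proteins that bind zinc and copper and whose near-identical copies may share reads, so that they may not be separate observations. MT2A was at 237, 88.7 and 309 CPM in control and 1522, 253 and 1040.0 CPM with WY-14643 (log2 fold change 1.92 ± 0.35, adjusted p = 0.00564, edgeR), and MT1A and MT1E passed the test as well, with log2 ratios of 2.40, 0.55 and 2.01 and of 2.30, 1.53 and 1.39 in the 3 cows. The groups overlapped for all 3 genes cow 576 being low in both of its slices. Without the 3 marked libraries the log2 fold changes were 1.57 for MT2A, 0.0021 for MT1A and 0.22 for MT1E. MMP12, a protease of macrophages that cleaves elastin, showed like ratios in every cow: it was at 116, 13.4 and 73.4 CPM in control and 766, 77.9 and 403 CPM with the agonist (log2 fold change 2.58 ± 0.56, adjusted p = 0.0213, edgeR). SLC2A1, a glucose transporter, went from 19.9, 25.7 and 51.4 CPM to 125, 72.6 and 125 CPM (log2 fold change 1.73 ± 0.42, adjusted p = 0.0468, edgeR). All 3 treated slices were above all controls. OSMR, a subunit of the oncostatin M receptor, had nearly equal controls of 44.2, 42.4 and 45 CPM and treated values of 172, 85 and 155 CPM (log2 fold change 1.55 ± 0.37, adjusted p = 0.0468, edgeR).

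Among genes with a call, at least 50 counts on average and the same direction in all 3 cows, the largest rises belonged to genes that were at or near 0 in control. LRIG1, a membrane protein that restrains growth factor receptors, had no count in any control library and 250, 15 and 174 counts with WY-14643, at least 49.4-fold higher taking 3 counts in the control group as the floor. NDUFA2, a subunit of mitochondrial complex I, and SDF2, a protein of the endoplasmic reticulum, likewise had no control count and were at least 58.3-fold and 40.4-fold higher. With the agonist NDUFA2 had 233, 7 and 278 counts and SDF2 had 224, 10 and 125. For all 3 genes cow 576 had the lowest count. The bounds pool the 3 cows and so rest mostly on the marked libraries of cows 581 and 567. MTX2, a protein of the outer mitochondrial membrane, had 3 control counts in all and a ratio of pooled CPM of 58 (95% counting interval 19.7 to 282). The control libraries were the shallower ones, and with all 6 thinned to the shallowest the calls fell to 54 rises and 45 falls.

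ANGPTL8, a secreted protein that regulates lipoprotein lipase, was at 0.398, 15.9 and 23.5 CPM in control and 88.7, 35.6 and 180.4 CPM with WY-14643 (log2 fold change 3.11 ± 0.60, adjusted p = 0.00718, edgeR). PLA2G12A, a secreted phospholipase, was at 0, 3.63 and 8.81 CPM and 49, 19.1 and 81 CPM (log2 fold change 3.57 ± 0.69, adjusted p = 0.00718, edgeR). For both genes all treated slices were above all controls, and cow 581 had the lowest control. SERPINA5, an inhibitor of protein C, rose from 5.97, 1.67 and 2.94 CPM to 47.4, 8.77 and 62.1 CPM (log2 fold change 3.50 ± 0.83, adjusted p = 0.0431, edgeR). ZDHHC2, an enzyme that adds palmitate to proteins, was among the most even of the rises, with log2 ratios of 2.51, 2.65 and 2.51. The amino acid transporters SLC38A1 and SLC38A4 were the 2 of 19 tested transporters that rose, SLC38A1 from 35.4, 29.3 and 45.8 CPM to 174, 56.4 and 150.4 CPM (log2 fold change 1.63 ± 0.37, adjusted p = 0.0320, edgeR).

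**Figure D2:**
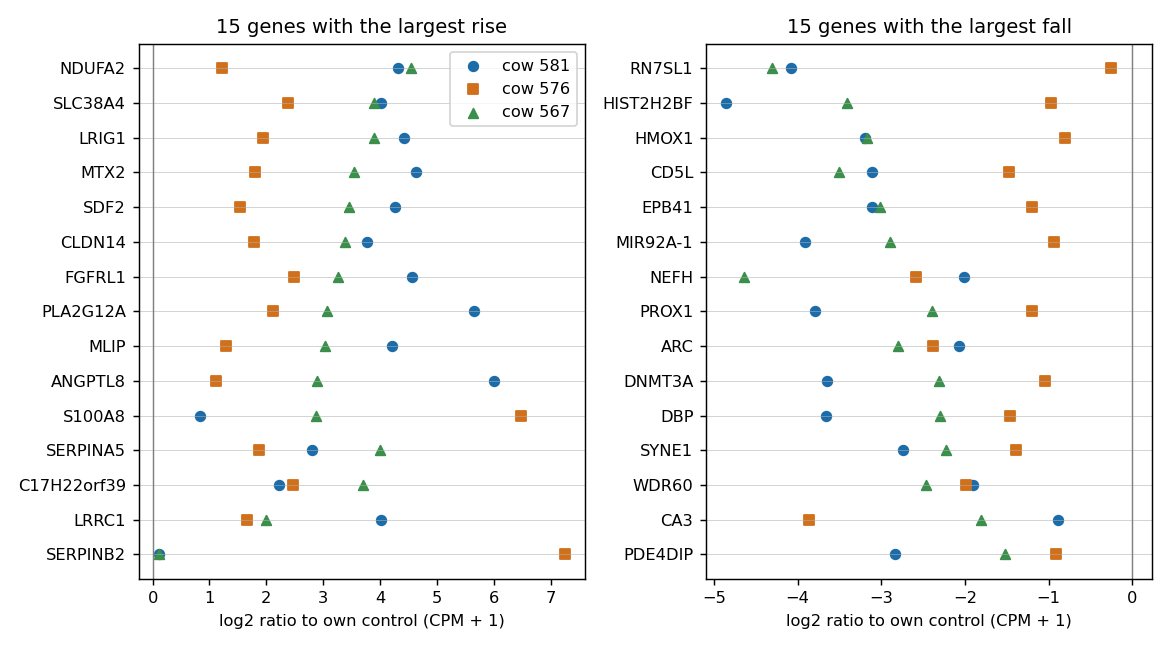
Log2 ratio of WY-14643 to the own control (x axis, after adding 1 CPM) in each of the 3 cows, for the 15 named genes with the largest rise (left) and the 15 with the largest fall (right). Cow 576 lies nearest to 0 for most genes; in S100A8, SERPINB2 and CA3 it lies farthest from 0.

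The falls included PROX1, a homeobox transcription factor of hepatocytes and lymphatic endothelium. It was at 1716, 683 and 689.7 CPM in control and 123, 298 and 131 CPM with WY-14643 (log2 fold change -2.50 ± 0.41, adjusted p = 0.00254, edgeR). Every treated slice was below every control, and the fall was smallest in cow 576. PROX1 was the only one of 18 tested hepatocyte transcription factors with an edgeR call (3 higher and 3 lower unadjusted, 1 and 3 by DESeq2). NR2F2, another of them, just missed it, lower in all 3 cows without overlap (log2 fold change -1.16 ± 0.36, adjusted p = 0.207, edgeR). DNMT3A, a DNA methyltransferase that sets new methylation, was at 251, 112 and 119 CPM and 19, 54.1 and 23.3 CPM (log2 fold change -2.45 ± 0.46, adjusted p = 0.00586, edgeR), the 1 edgeR call among 13 genes of DNA methylation and demethylation (0 higher and 2 lower unadjusted, 0 and 2 by DESeq2).

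ARC, an immediate early gene best known from neurons, was at 175, 51.9 and 59.5 CPM in control and 40.7, 9.15 and 7.65 CPM with the agonist (log2 fold change -2.48 ± 0.42, adjusted p = 0.00315, edgeR), with log2 ratios of -2.08, -2.38 and -2.81. NEFH, the heavy neurofilament subunit, was at 75.6, 44.9 and 49.7 CPM and 18.1, 6.67 and 1.04 CPM (log2 fold change -3.17 ± 0.58, adjusted p = 0.00562, edgeR). Neither gene had overlapping groups, and in both the ratio of cow 576 lay between those of the other cows. WDR60, a subunit of the cilium's dynein motor, was as even, with log2 ratios of -1.91, -1.99 and -2.47 (log2 fold change -2.21 ± 0.46, adjusted p = 0.0147, edgeR). SYNE1, which links the nucleus to the cytoskeleton, and EPB41, a protein of the membrane skeleton, fell with log2 ratios of -2.75, -1.39 and -2.23 and of -3.11, -1.20 and -3.02. SGK1, a kinase induced by glucocorticoids, was at 110.2, 159 and 109.6 CPM in control and 35.3, 58.3 and 31.2 CPM with WY-14643 (log2 fold change -1.62 ± 0.37, adjusted p = 0.0320, edgeR). ASS1, an enzyme of the urea cycle, was at 97.9, 98.8 and 78 CPM and 43.7, 28 and 25.3 CPM (log2 fold change -1.51 ± 0.38, adjusted p = 0.0684, edgeR), and ADAMTS1, a matrix protease, had log2 ratios of -1.13, -1.34 and -1.84. Of 28 immediate early genes, edgeR called ARC and NR4A2 lower and DUSP5 higher. Unadjusted, 2 were higher and 6 lower, and DESeq2 called 1 and 6. Over all genes 2.84% were lower unadjusted and 2.57% by DESeq2. DBP, an output gene of the circadian clock, was the 1 edgeR call among 19 clock genes, at 57.7, 27.9 and 32 CPM in control and 3.65, 9.53 and 5.74 CPM with WY-14643 (log2 fold change -2.76 ± 0.72, adjusted p = 0.0875, edgeR). Of the clock genes 0 were higher and 2 lower unadjusted in edgeR, and 0 and 2 by DESeq2.

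The genes for which PPARα is best known mostly did not pass the test. PDK4, the kinase that turns off pyruvate dehydrogenase, was at 256, 277 and 174 CPM in control and 195, 220.3 and 76.9 CPM with WY-14643 (log2 fold change -0.65 ± 0.30, adjusted p = 0.527, edgeR). CPT1A, the gate to mitochondrial oxidation, was at 139, 212 and 111 CPM and 58.8, 290.2 and 119.6 CPM (log2 fold change -0.14 ± 0.37, adjusted p = 0.937, edgeR). It was lower in cow 581 and higher in cows 576 and 567. ANGPTL4, an inhibitor of lipoprotein lipase, was at 89.1, 153 and 93.7 CPM and 97.3, 157 and 114 CPM (log2 fold change 0.16 ± 0.33, adjusted p = 0.914, edgeR), and the lipid droplet protein PLIN2 was at 479, 764 and 761 CPM and 939, 730.4 and 1239 CPM (log2 fold change 0.55 ± 0.27, adjusted p = 0.573, edgeR). The slices of each group overlapped for all of these genes. FGF21, a fasting hormone of liver, was under 4 CPM in each of the 6 control and WY-14643 libraries.

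VLDLR, a lipoprotein receptor, came nearest to a call among these genes: it was at 25.9, 20.9 and 11.3 CPM in control and 49.8, 68.8 and 52.5 CPM with the agonist, higher in all 3 cows and without overlap (log2 fold change 1.60 ± 0.51, adjusted p = 0.233, edgeR). CPT2, the inner-membrane partner of CPT1A, was also above all controls, at 1.19, 3.91 and 7.09 CPM and 23.4, 11.4 and 25.4 CPM (log2 fold change 2.09 ± 0.84, adjusted p = 0.411, edgeR). For ACADVL, CREB3L3 and VNN1 the adjusted p was 0.375, 0.812 and 0.731 (edgeR), and in each of them cows 581 and 567 were higher and cow 576 lower. The receptors themselves were not called: PPARA had log2 ratios of 0.20, -1.43 and -1.68, PPARD of 1.43, -0.25 and 0.64 and PPARG, at 0.489 to 11.4 CPM, of 0.05, -2.41 and 1.70.

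Over all genes tested, 5.59% were higher and 2.84% lower at an unadjusted p under 0.05 in edgeR, and DESeq2 called 2.92% higher and 2.57% lower, beside which the counts by list stand. With 0.775% and 0.428% called by edgeR over all genes, a list of this size without a call lies near the background. By list, 21 genes of mitochondrial fatty acid oxidation held 1 rise and no fall (3 and 3 at an unadjusted p under 0.05 in edgeR, 1 and 1 called by DESeq2), with a median log2 fold change of -0.12 beside 0.24 over all genes. The rise was HADHB, a subunit of the trifunctional protein, which had log2 ratios of 3.82, 0.00 and 2.10 and so did not move in cow 576 (log2 fold change 1.86 ± 0.46, adjusted p = 0.0578, edgeR). None of 23 peroxisomal genes was called by edgeR (2 higher and 1 lower unadjusted, 1 and 1 by DESeq2), nor any of 8 genes of ketone bodies (0 unadjusted and 0 by DESeq2), and the medians were 0.29 and -0.36. Among 25 genes of fatty acid uptake and binding, ACSL1, which activates long-chain fatty acids, rose with log2 ratios of 1.25, -0.03 and 2.21, and the binding protein FABP5 fell from 35, 274 and 35.7 CPM to 23.3, 57.6 and 14.1 CPM (log2 fold change -1.44 ± 0.43, adjusted p = 0.186, edgeR). Of 31 other liver genes linked to PPAR, edgeR called none (4 higher and 2 lower unadjusted, 1 and 1 by DESeq2). The median was 0.53. EdgeR also called none of 18 genes of lipid droplets and lipases (4 higher and 0 lower unadjusted, 1 and 0 by DESeq2), and their median was 0.62. LIPC, a lipase among them, had log2 ratios of 3.70, 1.26 and 1.25, with overlapping groups (adjusted p = 0.221, edgeR). Of the peroxisomal genes, NUDT7 had log2 ratios of 2.01, 2.32 and 3.09 without overlap, from 1 control count in all (adjusted p = 0.262, edgeR). CROT was lower in all 3 cows without overlap (adjusted p = 0.361, edgeR).

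**Figure D3:**
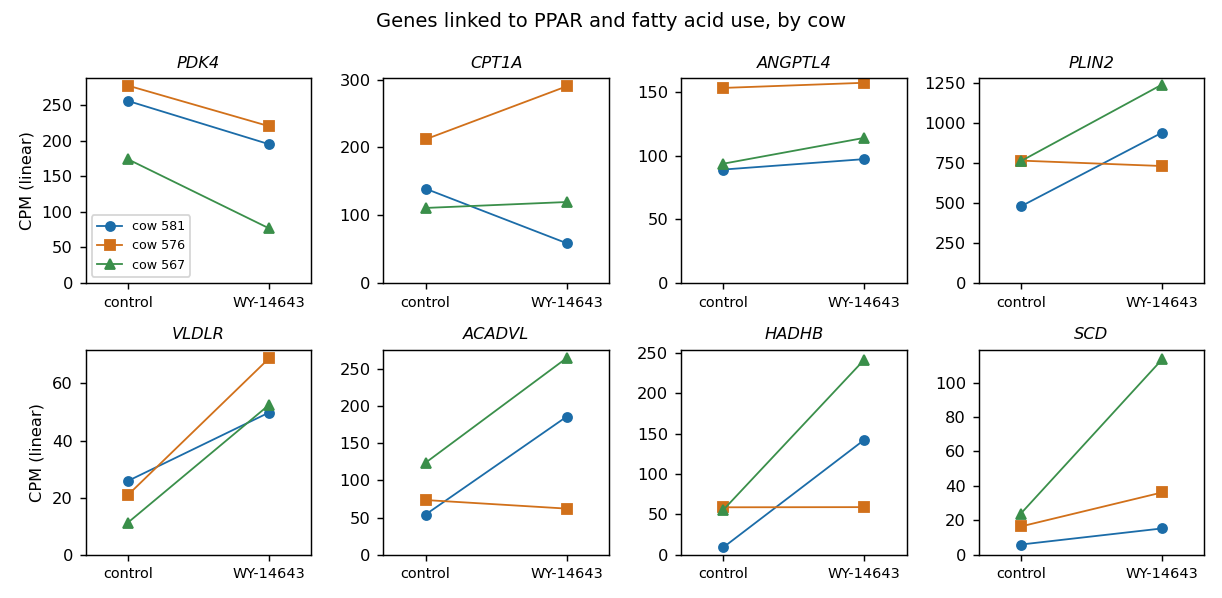
CPM (y axis, linear, from 0) in control and WY-14643 slices for 8 genes of fatty acid use, each line 1 cow. CPT1A differs in direction between cows, PDK4 is lower and VLDLR higher in all 3 cows, and neither of these was called.

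Lipid synthesis genes were counted in the same way. Of 23 genes of cholesterol synthesis and uptake, 3 rose and none fell (7 and 0 unadjusted in edgeR, 3 and 0 by DESeq2), and the median log2 fold change was 0.64. Among them MSMO1, a sterol oxidase, had log2 ratios of 2.75, 0.48 and 2.22, and ACAT2, which makes the first intermediate of the pathway, of 3.38, 0.29 and 3.25. SCD, the desaturase that makes oleic acid, was the 1 call among 33 genes of fatty acid and triacylglycerol synthesis (5 higher and 1 lower unadjusted in edgeR, 1 and 0 by DESeq2), at 5.97, 16.5 and 24 CPM and 15.3, 36.2 and 113 CPM (log2 fold change 1.71 ± 0.48, adjusted p = 0.129, edgeR). It was higher in each cow, though the groups overlapped.

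Many of the rises were larger in cows 581 and 567 than in cow 576. Of the 143 genes that rose, 81 were at least 2-fold higher in both of those cows and under 2-fold in cow 576, OSMR and SLC38A1 among them. The share of all genes with this form was not counted. Secreted proteins of hepatocytes were among these rises: 6 of 28 rose and none fell (15 and 0 unadjusted in edgeR, 6 and 0 by DESeq2). GC, the vitamin D carrier, was at 137, 117 and 282 CPM in control and 1088, 114 and 937 CPM with WY-14643 (log2 fold change 1.81 ± 0.42, adjusted p = 0.0418, edgeR). SERPINC1 (antithrombin), AHSG, AMBP, TTR and AZGP1 had the same form, TTR with log2 ratios of 2.21, -0.36 and 1.90. Of 19 acute-phase genes 4 rose (LBP, SAA2, ORM1 and FGL1), SAA2 with log2 ratios of 3.01, 0.43 and 1.97. Summed over the secreted list the level was 6208, 4244 and 10717 CPM in control and 17785, 3550.3 and 19874 CPM with the agonist.

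CYP26A1, which breaks down retinoic acid, went further in the same cows, at 0, 1.67 and 4.16 CPM in control and 66, 0.572 and 149 CPM with WY-14643 (log2 fold change 4.75 ± 1.25, adjusted p = 0.0875, edgeR). GLDC, the glycine cleavage enzyme, had log2 ratios of 2.87, -0.40 and 2.73, and the chaperones DNAJB9, PDIA4 and HSPB8 of 3.18, 0.56 and 2.30, of 2.58, 0.52 and 2.03 and of 3.20, -0.41 and 1.94. In contrast HSPD1 and PDIA3 fell in cows 581 and 567, with log2 ratios of -1.69, -0.15 and -1.85 and of -1.75, -0.01 and -1.79. HSPE1, a gene of the same heat shock list as HSPD1, rose in these cows instead. Its log2 ratios were 2.09, -0.05 and 1.81 (log2 fold change 1.28 ± 0.35, adjusted p = 0.106, edgeR). RN18S1 itself fell in the same cows, from 562168, 350043 and 366743 CPM to 116916, 309392 and 93196 CPM (log2 fold change -1.57 ± 0.33, adjusted p = 0.0151, edgeR). Cows 581 and 567 are those with marked, deeper WY-14643 libraries, and without the 3 marked libraries, which leaves cow 576 as the only pair, the log2 fold changes of GC, TTR, AHSG, GLDC and CYP26A1 were -0.52, -0.87, -0.42, -0.45 and -1.31. That fit also used the GW-501516 and rosiglitazone slices of cow 576. Against its own control, cow 576 had log2 ratios of -0.03, -0.36, 0.27, -0.40 and -0.77 for these genes. What the mark, the depth and the RN18S1 share contributed was not tested.

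A further group rose mainly in cow 576. S100A8, a calcium-binding protein abundant in neutrophils, was at 7.16, 5.58 and 0 CPM in control and 13.5, 581 and 6.29 CPM with WY-14643 (log2 fold change 4.29 ± 0.91, adjusted p = 0.0176, edgeR). S100A12 was at 16.7, 61.1 and 10 CPM and 29.1, 1004 and 11.6 CPM (log2 fold change 1.97 ± 0.51, adjusted p = 0.0804, edgeR), and its relative S100A9 was not called, with log2 ratios of 2.50, 5.45 and -0.43. SERPINB2, an inhibitor of plasminogen activators, had 2 control counts in all, and its treated counts were 1, 1232 and 1. The chemokines CXCL2 and GRO1 had log2 ratios of 2.68, 5.40 and -0.13 and of 0.97, 4.97 and -0.56. SOD2, the mitochondrial superoxide dismutase, rose most in cow 576 too, but was at least 2-fold higher in each cow and without overlap. Its log2 ratios were 1.14, 3.11 and 1.11, from 68, 78.4 and 43.1 CPM to 152, 686 and 94 CPM. Without the WY-14643 library of cow 576 the log2 fold change of SERPINB2 was -0.34.

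Markers of other cell types moved as follows, and in slices fewer cells of a type and less RNA per cell cannot be told apart. Of 22 listed neutrophil markers 10 were tested and 2 rose, and 6 (CXCR1, MMP8, ELANE and the cathelicidins CATHL4, CATHL5 and CATHL6) had no count in any of the 6 libraries. Their summed level was 102, 96.8 and 70.9 CPM in control and 87.3, 2162 and 44.3 CPM with WY-14643, high in the treated slice of cow 576 alone. Of 22 macrophage and Kupffer cell genes 2 fell and none rose (4 and 0 unadjusted in edgeR, 3 and 0 by DESeq2). These were HMOX1, which degrades heme, at 1409.5, 753 and 529.7 CPM and 152, 432 and 57.9 CPM (log2 fold change -2.20 ± 0.41, adjusted p = 0.00586, edgeR), and CD5L, a secreted protein of Kupffer cells, at 165, 8.09 and 67.5 CPM and 18.3, 2.29 and 5.02 CPM (log2 fold change -2.97 ± 0.69, adjusted p = 0.0396, edgeR). Their list summed to 3017, 1887 and 1439 CPM in control and 1115, 2459 and 733 CPM with the agonist, higher only in cow 576. Of 25 lymphocyte genes SLAMF7 and IL7R fell, SLAMF7 with log2 ratios of -2.02, -1.01 and -1.76, and the summed level was 1086, 1185 and 743 CPM and 364, 812 and 285 CPM, lower in each cow. Without these genes the other 23 summed to 366, 275 and 247 CPM and 172, 286 and 135 CPM, and were not lower in cow 576. Of 13 bile duct genes KRT18, a keratin that hepatocytes also make, rose (3 and 0 unadjusted in edgeR, 1 and 0 by DESeq2), and the list summed to 342, 490 and 792 CPM and 1042, 556 and 1779 CPM, higher in each cow. Liver endothelium genes summed to 818, 796 and 611 CPM and 513, 759 and 359 CPM, with edgeR calling none of 18 (0 higher and 3 lower unadjusted, 0 and 2 by DESeq2). Stellate cell and fibroblast genes summed to 864, 2601 and 1042 CPM and 660.4, 4255 and 674 CPM, with edgeR calling none of 23 (0 higher and 2 lower unadjusted, 0 and 2 by DESeq2). The part of cell makeup in the other results was not tested.

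**Figure D4:**
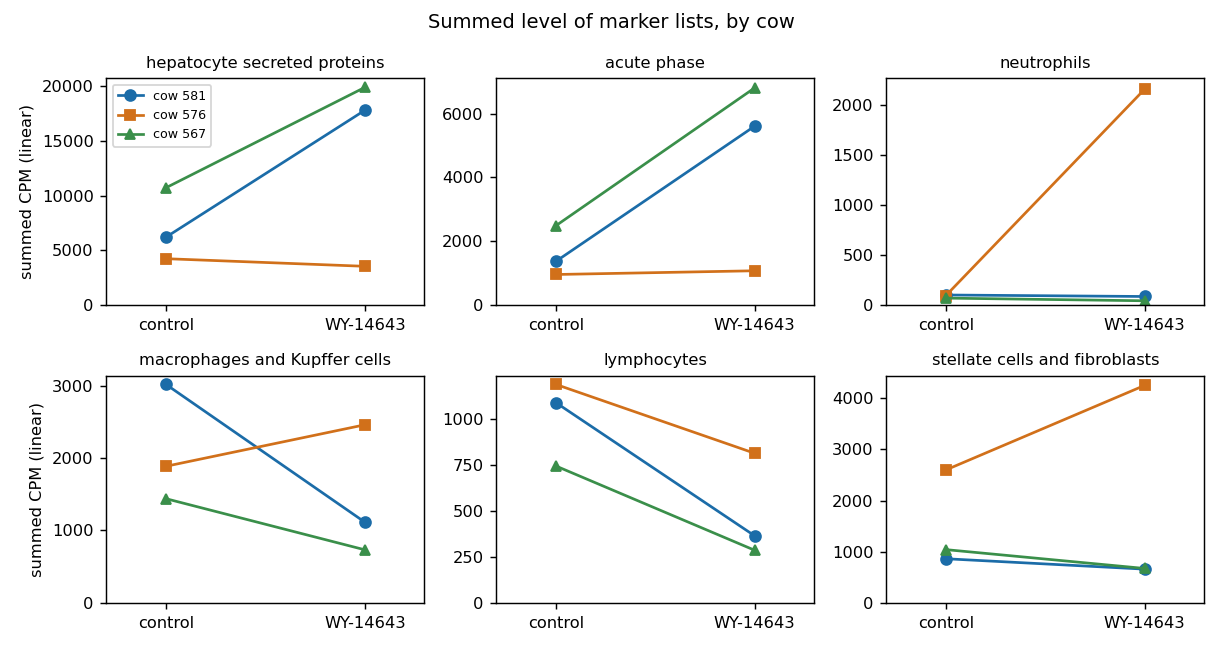
Summed CPM (y axis, linear, from 0) of 6 marker lists in control and WY-14643 slices, each line 1 cow. Hepatocyte secreted and acute-phase genes sum to far more with WY-14643 than in control in cows 581 and 567 only, neutrophil genes in cow 576 only, and the lymphocyte sum is lower in all 3 cows, though in cow 576 not without SLAMF7 and IL7R (275 and 286 CPM).

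WY-14643 was also compared with rosiglitazone in the same cows and at the same dose and time. No rosiglitazone library carried the extra mark. These libraries held 3814770, 6143418 and 3675309 gene counts, of which RN18S1 took 37.5, 33.2 and 33.1%. In cows 581 and 567 the agonist, the mark, the depth and the RN18S1 share therefore cannot be told apart here either. The control libraries entered the shared spread and the cow terms of the fit, and the count of calls changed with them. With WY-14643, 85 genes were higher and 35 lower than with rosiglitazone (0.461% and 0.190% of the genes tested). CXCL8 was at 254, 195 and 275 CPM with rosiglitazone, below each cow's WY-14643 slice (log2 fold change 1.76 ± 0.36, adjusted p = 0.0190, edgeR). MMP12 was at 30.9, 13.1 and 64 CPM with rosiglitazone (log2 fold change 3.01 ± 0.57, adjusted p = 0.0152, edgeR), again lower in each cow. On the other side PROX1 was at 693, 573 and 448 CPM (log2 fold change -1.65 ± 0.39, adjusted p = 0.0554, edgeR), NEFH at 54.2, 18.7 and 27.2 CPM (log2 fold change -2.30 ± 0.56, adjusted p = 0.0669, edgeR) and the mitochondrial chaperonin HSPD1 at 742, 753 and 484 CPM (log2 fold change -1.96 ± 0.39, adjusted p = 0.0152, edgeR) with rosiglitazone, each higher than in the WY-14643 slice of the same cow. HSPE1 was not called between the agonists (log2 fold change 0.51 ± 0.34, edgeR). CYP3A4, at 239.7, 523 and 242 CPM with rosiglitazone, was not called between the agonists (log2 fold change 0.20 ± 0.31, adjusted p = 1.00, edgeR), nor was LBP, at 244, 212 and 241 CPM (log2 fold change -0.42 ± 0.36, adjusted p = 1.00, edgeR). That a p missed the threshold does not show that the agonists acted alike on these 2 genes. GW-501516, given at another dose, was not tested against WY-14643. Its slices were at 776, 198 and 208 CPM for CXCL8 and 136, 253.5 and 469 CPM for PROX1. For HSPD1 they were at 132, 1206 and 540 CPM. In cow 581, whose GW-501516 library was marked, these values lay nearer to WY-14643 than to rosiglitazone. PROX1 was also called lower with GW-501516 than in control (log2 fold change -1.82, adjusted p = 0.0346, edgeR). The 120 calls became 0 after edgeR's filterByExpr (793 at an unadjusted p under 0.05, and 429 by DESeq2 over all genes) and up to 797 with a library or cow left out.

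**Figure D5:**
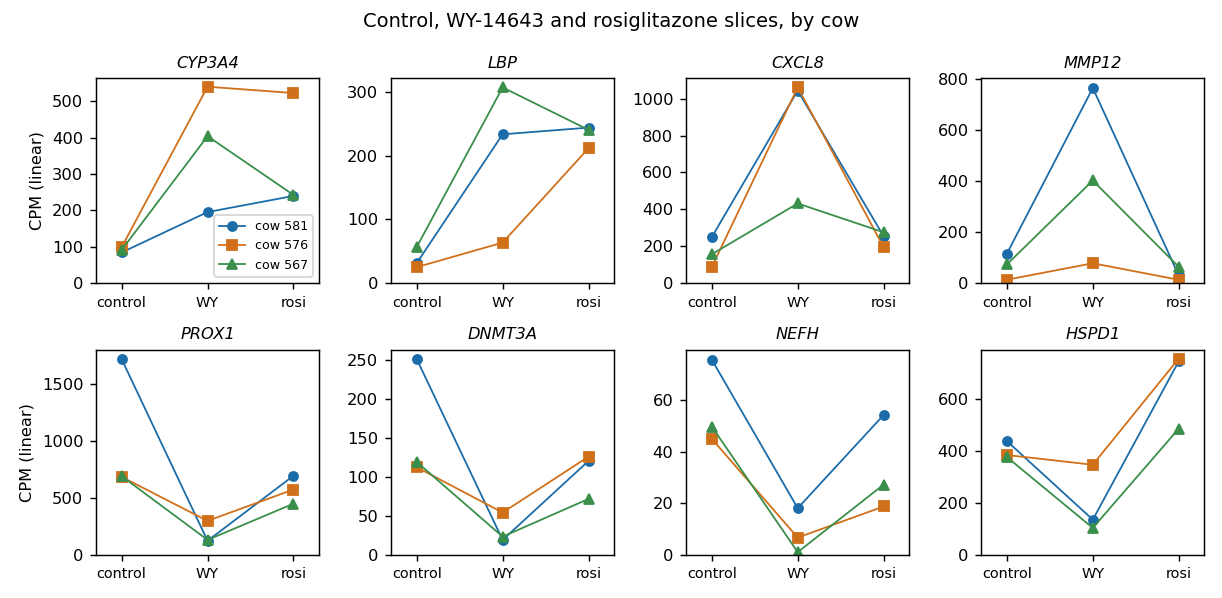
CPM (y axis, linear, from 0) of 8 genes in control, WY-14643 (WY) and rosiglitazone (rosi) slices, each line 1 cow. CXCL8 and MMP12 peak and PROX1, DNMT3A, NEFH and HSPD1 dip in the WY-14643 slices, whereas CYP3A4 and LBP are above control with both agonists. GW-501516 slices are not drawn.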

How the data were processed

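The authors made QuantSeq 3' libraries, used Trimmomatic 0.39 for trimming, and aligned to ARS-UCD1.2 with STAR 2.7.1. They deposited unnormalized counts, as whole numbers of reads for each gene. The headers name STAR's gene table, whereas the study's methods name StringTie 2.0. No source used here gives the strand setting, and overlapping genes or near-identical copies (metallothioneins, MHC genes) therefore have uncertain counts. The 4 tallies of reads outside genes were left out. In the 6 libraries 3.69 to 17.1% of reads were unmapped, 5.70 to 6.75% mapped to several places, 32.0 to 46.5% lay in no gene and 0.380 to 1.40% were ambiguous. Of the gene names, 26 had become dates and were not named.

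Genes were tested with edgeR 4.0.16 (R 4.3.3; glmQLFit with legacy=TRUE, TMM) on the 12 libraries of 3 cows, with treatment and cow as terms. Samples were paired because each cow gave all 4 slices; deviations from the group means correlated at 0.09, 0.27 and 0.34 between control and WY-14643 slices of cows 581, 576 and 567, and at up to 0.18, 0.05 and -0.15 with the control slices of another cow, so that cow 581 correlated less with its own control. The study used DESeq2 1.30.1 and names no cow term; DESeq2 1.42.0 and a fit without the block were alternatives. Each cow's log2 ratio is log2 of treated over control CPM, 1 CPM having been added to both, which understates the change of low genes. Named genes were the 15 largest changes per direction (called, mean of at least 50 counts, same direction in 3 cows, with a symbol), the 3 members of each of 36 lists with the smallest p and 14 genes linked to PPAR; others were chosen after their values were seen. Members and lists were chosen with earlier results of these data known, so no list was tested. The fit was tested on simulated data. Some of the genes that the rule names are not reported here. No sequence was used.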

Additional observations from a re-analysis of the deposited data

How the results depend on the processing

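The counts of genes called depended strongly on the processing, whereas the fold changes of most named genes kept their direction, though not their size. Of 90 called genes tracked, 14 turned direction and 38 kept it at under 1/1.5 of the size without the 3 marked libraries. There IGFBP1 was at 0.14, MT1A at 0.0021 and PDIA4 at 0.043. In that fit the level of cow 576 also rested on its GW-501516 and rosiglitazone slices, so a value is not the ratio to its own control. Those log2 ratios were 1.10, 0.55 and 0.52 for the same 3 genes. The main counts were 143 genes higher and 79 lower, 123 and 74 of them in the same direction in all cows, 120 called against rosiglitazone and 566 at least 2-fold in all 3 cows. No replicate block gave 8, 2, 8, 2 and 16 calls in that order. The other settings gave 691, 350, 572 and 291 (6 libraries), 10, 12, 10, 12 and 3 (16 libraries, cow 574 added), 968, 465, 794, 390 and 526 (without the GW-501516 library of cow 576), 361, 161, 284, 140 and 245 (no filter on low counts), 6, 15, 6, 15 and 0 (filterByExpr, 793 against rosiglitazone at an unadjusted p under 0.05 and 429 by DESeq2 over all genes), 538, 474, 363 and 364 (DESeq2 with the block) and 54, 45, 47, 43 and 70 (thinned to the shallowest library). The falls were 123 and 117 with DESeq2 size factors, 129 and 124 with upper quartile scaling, 146 and 134 with legacy=FALSE, and 127 and 116, beside 185 rises in all cows, in DESeq2 without the block. Chosen after seeing the data, the filter over 12 libraries gave 366, 166, 289, 145 and 251, robust=TRUE 42, 39, 42, 39 and 59, the set without the 3 marked libraries 42, 10, 42, 10 and 401, and thinning without RN18S1 38, 35, 36, 33 and 42. Leaving out a library or cow gave 4 to 1914 genes higher, 2 to 1109 lower, 4 to 1907 and 2 to 1065 in the same direction in the cows left, 68 to 797 against rosiglitazone and 1183 to 3011 at least 2-fold, the last over 2 cows. That count was 1027 with 0.25 CPM added, 100 with 5 CPM added and 4896 without the marked libraries, where it rests on cow 576 alone. These settings only recount the calls, and the cause of the differences was not tested.

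Of the genes that turned direction, none of CPT1A, ANGPTL4, CREB3L3, PPARG, PPARD, ACADVL, VNN1, APOA1 and APOC3 was called. With a library or cow left out the log2 fold change ranged from -0.70 to 0.30 for CPT1A, -0.0040 to 0.24 for ANGPTL4, -2.08 to 1.18 for PPARG and -0.34 to 9.52 for SERPINB2. CPT1A was at 0.018 with no replicate block, ANGPTL4 at -0.0084 with 16 libraries and -0.0044 with upper quartile scaling, and CREB3L3 at -0.030 with 16 libraries. Without the 3 marked libraries the values were 0.060 (ATP8), 0.63 (CPT1A), -0.45 (ACADVL), -0.0044 (ANGPTL4), -0.99 (CREB3L3), -1.16 (VNN1), -0.040 (PPARD), -1.31 (CYP26A1), -0.46 (ORM1), -0.45 (FGL1), -0.87 (TTR), -0.52 (GC), -0.41 (SERPINC1), -0.33 (AZGP1), -0.42 (AHSG), -0.60 (AMBP), -0.45 (GLDC), -0.71 (HSPB8), -0.37 (KRT18), -0.54 (PLG), -0.34 (APOA1) and -1.29 (APOC3). Against its own control, cow 576 was higher in FGL1, SERPINC1, AZGP1, AHSG, AMBP, KRT18, PLG, APOA1 and ANGPTL4. These log2 ratios were 0.08, 0.32, 0.29, 0.27, 0.21, 0.46, 0.18, 0.69 and 0.04. For the other genes of the list the ratio of cow 576 had the sign of the value given.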

Other observations

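Cow 574, whose libraries held 924251 gene counts in control and 772012 with WY-14643, entered no main test. Of the 50 genes that were called and at least 2-fold higher in all 3 other cows, 32 had at least 20 counts over its 2 libraries, and 23 of these had a larger share of the gene counts with WY-14643. Of the 33 genes called and at least 2-fold lower, 31 had that many counts, of which 17 were lower and 14 higher in cow 574. These are values of 1 pair with no replicate and no test. The shares were not scaled by TMM, and RN18S1 took 29.4% of the gene counts in control and 24.9% with WY-14643. In these libraries 80.7% and 84.3% of reads lay in no gene. How many of all genes were higher or lower in cow 574 was not counted, so these counts cannot be read as agreement.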
